A study of Caenorhabditis elegans with 6 samples.

Results

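The F-box B genes of Caenorhabditis elegans were examined in 6 RNA-seq libraries from pools of whole worms. They were found by name: of the 22407 genes in the deposited count table, those called fbxb followed by a number were taken, which gave 103 genes with at least 1 count and 1, fbxb-14, with none. Members were chosen by name alone, but the family itself was selected on its difference in counts between the RNAi and EV libraries, so that difference is given here as a description and supports nothing further. All worms were of strain AM140, which carries the transgene rmIs132, in which the muscle promoter of unc-54 drives a stretch of 35 glutamines joined to yellow fluorescent protein. The EV group (3 libraries) was fed HT115 bacteria with an empty vector. The gtr-1 RNAi group (3 libraries, called RNAi from here on) was fed HT115 that targets the gtr-1 3'UTR. Each group received its bacteria for 2 generations at 20 °C. In both groups, bleach was applied to generation 1 at adult day 1. Generation 2 was freed of offspring each day and harvested on day 6 of adulthood. The transgene was present in both groups, so no library shows the family without it.

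An F-box protein is the interchangeable substrate receptor of an SCF ubiquitin ligase. Its F-box binds a Skp1-related protein (SKR in worms), which hangs on the cullin CUL-1, while another part of the F-box protein holds the target that is to be ubiquitinated. Nematodes have very many F-box genes, mostly in families A, B and C, told apart by the domain that accompanies the F-box; in the B family this is an F-box associated domain. Most B genes have no described function of their own, so the single genes below are given by level and position.

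The targeted gene showed no lower level in the libraries labelled RNAi. The EV libraries had 16, 25 and 20 reads of gtr-1 and the RNAi libraries 20, 24 and 19 (log2 fold change -0.01 ± 0.28 SE, edgeR adjusted p = 0.986). Group names and directions below thus rest on the labels alone. Bacterial RNA that carries the construct can add to these counts, and its share was not tested. Total counts ran from 33254426 to 41902475 per library. On the first principal component of all genes, which held 72.7% of the variance, the EV libraries lay at -19.2, -35.3 and -40.6 in the order of their numbers. The RNAi libraries lay at 41.8, 59.9 and -6.62, so that the third was nearer to EV replicate 1 than to the others of its group.

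All of the members are annotated as protein coding in the WBcel235 annotation. They are small and simply built, with a median of 1047.5 exonic bases and 2 exon blocks in 85 of them. Of the 15 with 3 blocks, 12 lie on chromosome V. The family is unevenly placed: 58 members lie on chromosome II, 16 on V, 10 on I, 9 on IV, 8 on III and 3 on X. Of those on chromosome II, 57 end before 5 Mb, and of those on chromosome V, 15 start after 17 Mb. All 10 members on chromosome I start after 13 Mb. With neighbours less than 20 kb apart counted as a cluster, 76 members fell into 19 clusters of up to 9 genes and 28 stood alone. Such tandem copies can share reads; sequence identity between members was not analysed here, so counts of single members are less certain than their sum. Exons of other genes overlap 13 members, 8 on the same strand and 5 on the opposite strand.

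Most members were expressed at a low level. In TMM-adjusted CPM, which scales counts to library size, 2 members had a mean of 10 or more over the 6 libraries, 70 lay from 1 to 10 and 32 lay under 1, with 14 members under 100 counts over all 6 libraries. The most abundant was fbxb-97 (WBGene00016885, chromosome II, 1846977 to 1848161), which alone gave 13.1% of the family's summed level with EV and 19.2% with RNAi. Per kb of exon, its EV level was 31.7 CPM, against a median of 1.56 CPM per kb over the family. Next per kb with EV were fbxb-7 at 10.2 and fbxb-66 at 10.1 CPM per kb, which lie within each other's spread between EV libraries.

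Summed over all members, the family stood at 261, 261 and 299 CPM in EV replicates 1, 2 and 3. In RNAi replicates 1, 2 and 3 the sums were 225, 187 and 245 CPM. Every RNAi library was below every EV library, though the third was close to the lower EV libraries. The group means were 274 ± 22.1 CPM with EV and 219 ± 29.5 CPM with RNAi (SD, n = 3 each), a log2 ratio of -0.32. Without fbxb-97 they were 238 ± 21.5 and 177 ± 33.9 CPM, a log2 ratio of -0.43. Reads assigned to the wrong member leave this sum as it is, whereas reads discarded because they match several members would lower it. In RNA from whole worms, fewer cells that express these genes and less RNA per cell cannot be told apart.

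**Figure D1:**
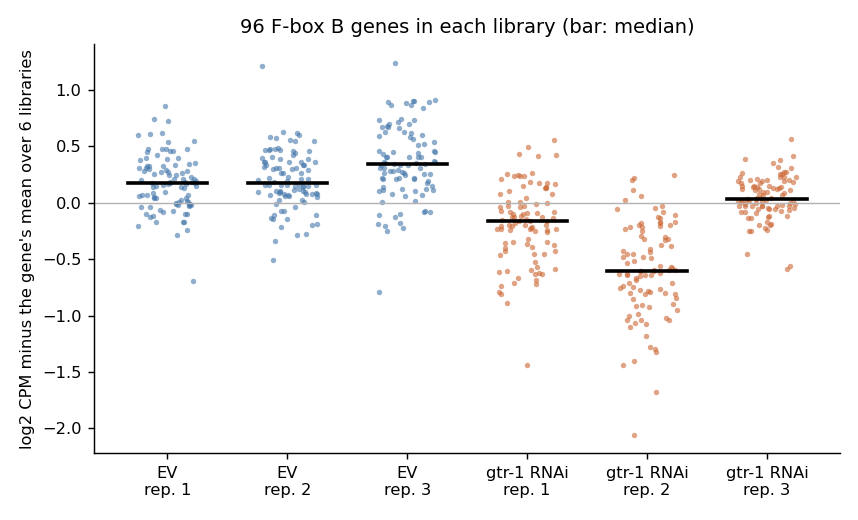
Level of each F-box B gene in each library, as log2 CPM minus the gene's mean over the 6 libraries, for the 96 members kept by the count filter; points are genes and bars are medians. The medians are 0.18, 0.18 and 0.34 in EV replicates 1, 2 and 3 and -0.16, -0.61 and 0.04 in RNAi replicates 1, 2 and 3.

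The count filter kept 96 members. Of these, 82 had a negative log2 fold change (RNAi relative to EV) and 14 a positive one, where 50.5% of all 14683 genes tested were negative and 49.5% positive. Their median log2 fold change was -0.50, with quartiles of -0.71 and -0.23, against a median of -0.0025 over all genes tested. A fitted value at least 1.5-fold lower with RNAi was found for 35 members and one at least 1.5-fold higher for 0, where 12.3% and 5.29% of all genes had such values. Because the filter can admit a gene through its EV counts alone, the same direction was counted over every member with at least 1 count. Of these 103, 88 had a lower mean with RNAi and 15 a higher one. The matching share over all genes with a count was not computed. In an edgeR fit without the filter, the median log2 fold change was -0.50 over the 103 members and -0.025 over 20911 genes. In CPM, the groups did not overlap for 47 members that were lower and 3 that were higher with RNAi, where 19.6% and 16.6% of all genes tested did so in these directions.

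No member passed the edgeR quasi-likelihood test. At an adjusted p under 0.05 (Benjamini-Hochberg over all genes tested) it called 0 higher and 0 lower members, as it called 0% of all genes in either direction, and the smallest adjusted p of a member was 0.112. At an unadjusted p under 0.05, 32 members were lower and 2 higher, where 15.3% and 12.9% of all genes were. The DESeq2 Wald test called 12 members lower and 1 higher among the 90 it gave an adjusted p, where it called 6.96% of all genes lower and 6.03% higher. Limma-voom with sample quality weights called 39 lower and 3 higher, where it called 21.6% and 16.1% of all genes.

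The calls depended on single libraries. With RNAi replicate 3 left out, DESeq2 called 26 members lower and 2 higher, where it called 12.9% and 9.99% of all genes, and edgeR called 33 lower and 2 higher, where it called 15% and 8.77%. With EV replicate 1 left out, DESeq2 called 4 lower and 1 higher, where it called 5.37% and 6.07% of all genes. Dropping EV replicate 2 gave 3 lower and 0 higher (1.93% and 2.78% of all genes), and dropping EV replicate 3 gave 0 lower and 1 higher (0.836% and 1.71%). Dropping RNAi replicate 1 gave 0 in each direction (0.439% and 0.887% of all genes), and dropping RNAi replicate 2 gave 1 lower and 0 higher (1.4% and 1.53%). None of the 13 members called with 6 libraries was called in all 6 of these DESeq2 fits. The gene fbxb-66 was called in 4, fbxb-7 and fbxb-77 in 3, 3 others in 2, and 7 in 1 only, the one that lacked RNAi replicate 3. Across the edgeR fits that each lacked 1 library, the median log2 fold change of the family was -0.31 when RNAi replicate 2 was dropped and -0.65 when RNAi replicate 3 was. With the replicate number as a block, edgeR called 9 lower and 0 higher (3.35% and 3.18% of all genes). DESeq2 with this block called 8 lower and 0 higher (7.32% and 5.77%). Whether equal numbers mark libraries that belong together is not known.

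The 12 members called lower by DESeq2 lie on chromosomes I, II, IV and V. The gene fbxb-66 (WBGene00044066, chromosome I, 13423997 to 13425148) was at 11.1, 9.85 and 12.1 CPM in EV replicates 1, 2 and 3. It was at 5.11, 3.79 and 7.64 CPM in RNAi replicates 1, 2 and 3. The groups did not overlap, and RNAi replicate 3 was the library closest to EV. The edgeR log2 fold change of fbxb-66 was -0.999 ± 0.25 SE (edgeR adjusted p = 0.112, DESeq2 adjusted p = 0.00109). The solitary gene fbxb-88 (chromosome II, 4826446 to 4827884) was at 6.80, 6.79 and 8.64 CPM with EV. It was at 2.77, 3.01 and 5.68 CPM with RNAi, again with the third library highest in its group and no overlap (log2 fold change -0.95 ± 0.28 SE). The gene fbxb-75 (chromosome IV, 4439824 to 4441177) was at 5.76, 6.38 and 7.70 CPM with EV and 3.22, 3.26 and 5.02 CPM with RNAi. Its groups were separate too, with a log2 fold change of -0.78 ± 0.21 SE.

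On chromosome IV, fbxb-77 and fbxb-78 form a pair within 18.6 kb. The gene fbxb-77 was at 3.96, 3.67 and 4.87 CPM with EV and 1.72, 1.15 and 2.64 CPM with RNAi. Its log2 fold change of -1.17 ± 0.29 SE was the lowest of the members that DESeq2 called. Its neighbour fbxb-78 was at 1.62, 1.85 and 2.22 CPM with EV and 0.820, 0.702 and 1.25 CPM with RNAi. In both genes the groups did not overlap.

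A cluster of 4 on chromosome I (14083045 to 14096348) held 3 of the called genes. Of these, fbxb-101 was at 5.15, 6.36 and 7.61 CPM with EV and 2.71, 1.48 and 4.70 CPM with RNAi, a wide spread within each group. Its log2 fold change was -1.10 ± 0.40 SE. The neighbours fbxb-100 and fbxb-93 had log2 fold changes of -1.03 ± 0.35 and -0.74 ± 0.20 SE. The remaining gene of the cluster, fbxb-56, averaged 1.76 CPM with EV and 1.60 CPM with RNAi, and its groups overlapped.

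The other members that DESeq2 called lower were fbxb-45, fbxb-102, fbxb-115 and fbxb-18, with log2 fold changes of -0.96 ± 0.31, -0.94 ± 0.30, -1.002 ± 0.33 and -0.96 ± 0.27 SE in that order. Exons of fbxb-18 overlap those of fbxb-19 on the same strand, so the reads of this pair cannot be assigned with certainty. In all 4 the highest RNAi library stayed below the lowest EV library.

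Both of the lowest fold changes of the family, of fbxb-114 and fbxb-76, belonged to genes with under 100 counts over 6 libraries, while fbxb-77, described above, came next with 676 counts. The gene fbxb-114 (chromosome X, 16921833 to 16923145) had 13, 18 and 16 counts in EV replicates 1, 2 and 3. It had 1, 0 and 8 counts in RNAi replicates 1, 2 and 3. It was the only kept member with under 10 counts in every RNAi library. Of the kept members, 6 (fbxb-5, fbxb-19, fbxb-38, fbxb-76, fbxb-87 and fbxb-114) had at least 10 counts in all 3 EV libraries but not in all 3 RNAi libraries, and 1, fbxb-21, was the reverse. The shares of all genes kept with these patterns were not computed. From the summed counts of 47 and 9, the RNAi level of fbxb-114 was 0.184 of its EV level. The 95% exact binomial interval of 0.0792 to 0.379 covers counting error only. The gene fbxb-76 had 15, 14 and 11 counts with EV and 4, 2 and 12 with RNAi, a ratio scaled to library size of 0.432 (0.233 to 0.771). For fbxb-76, RNAi replicate 3 had more reads than EV replicate 3 but a lower CPM, at 0.294 against 0.321. In CPM its groups did not overlap. The gene fbxb-70 was at 1.67, 1.67 and 1.75 CPM with EV and 0.791, 0.301 and 1.27 CPM with RNAi (log2 fold change -1.10 ± 0.43 SE). DESeq2 did not call fbxb-70, and it gave fbxb-114 and fbxb-76 no adjusted p.

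Both of the most abundant members had higher values with RNAi. The gene fbxb-97 was at 36.2, 35.02 and 36.6 CPM in EV replicates 1, 2 and 3 and 43.1, 46.1 and 37.0 CPM in RNAi replicates 1, 2 and 3. The groups did not overlap, by a narrow margin in RNAi replicate 3 (log2 fold change 0.23 ± 0.08 SE). Its neighbour fbxb-96 was at 6.85, 6.71 and 7.06 CPM with EV and 8.93, 7.75 and 7.44 CPM with RNAi (log2 fold change 0.23 ± 0.11 SE). DESeq2 called neither (adjusted p = 0.0955 for fbxb-97 and 0.321 for fbxb-96). The gene fbxb-7 (WBGene00012492, chromosome V, 17377406 to 17379233) was at 11.02, 10.1 and 11.6 CPM with EV. It was at 14.3, 14.2 and 13.7 CPM with RNAi, with all 3 libraries close together and above EV. Its edgeR log2 fold change was 0.37 ± 0.09 SE (edgeR adjusted p = 0.112, DESeq2 adjusted p = 0.0179). It was the only member that DESeq2 called higher with all 6 libraries. These 3 were the only kept members whose groups were separate in this direction.

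**Figure D2:**
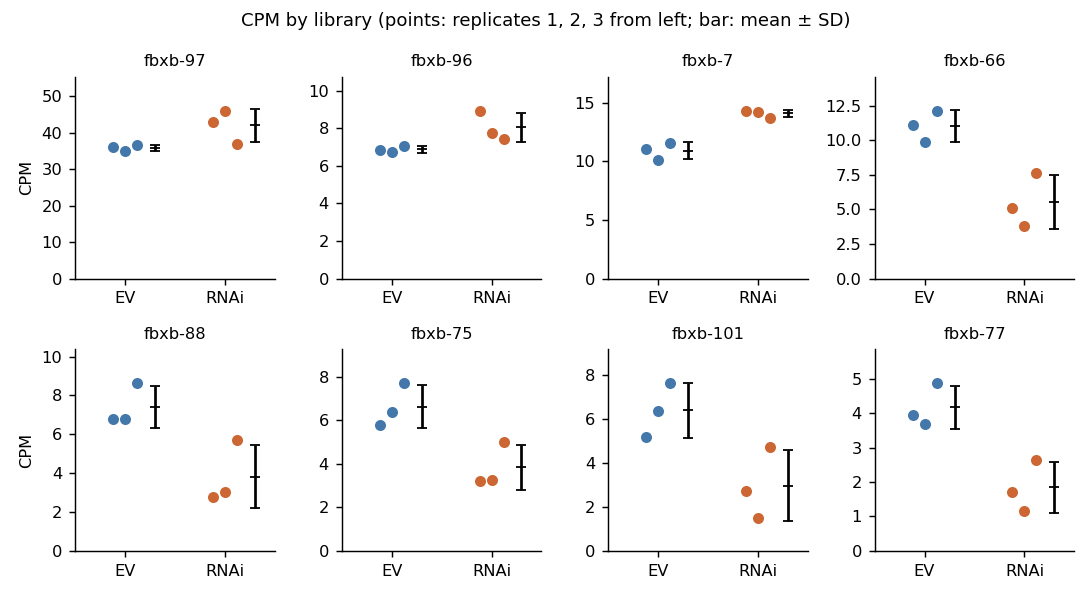
CPM of 8 F-box B genes in each library, with points for replicates 1, 2 and 3 from left to right and bars for the mean ± SD of each group (n = 3). The upper row starts with the 3 members that are higher in every RNAi library, and in the other 5 every RNAi library is below every EV library.

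Of the other abundant members, fbxb-41 was at 5.07, 7.14 and 7.61 CPM with EV and 7.32, 4.51 and 6.24 CPM with RNAi, with no separation. The genes fbxb-103 and fbxb-84 had log2 fold changes of -0.10 ± 0.13 and 0.05 ± 0.15 SE, and their groups overlapped. An exon of bcmo-2 lies on the opposite strand of fbxb-103. The genes fbxb-54 and fbxb-91 had log2 fold changes of -0.50 ± 0.23 and -0.49 ± 0.17 SE, with separate groups but no call by DESeq2. The remaining high fold changes, of fbxb-68 (0.31 ± 0.26 SE), fbxb-20 (0.29 ± 0.21), fbxb-31 (0.24 ± 0.23), fbxb-59 (0.17 ± 0.24) and fbxb-67 (0.12 ± 0.18), came from genes whose groups overlapped. Exons of fbxb-20 overlap those of fbxb-16, and those of fbxb-59 overlap fbxa-113 on the opposite strand.

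Ranked by mean CPM and split into 3 bins of 32, the members had median log2 fold changes of -0.54, -0.43 and -0.54 from the most to the least abundant bin. In the same order, 26, 29 and 27 members were negative. DESeq2 called 10 members lower in the most abundant bin, 2 in the middle and 0 in the least abundant. In the least abundant bin it gave fbxb-5, fbxb-16, fbxb-19, fbxb-21, fbxb-76 and fbxb-114 no adjusted p, so these could not be called. The share called of all genes at matching levels was not computed. The median SE of the log2 fold change was 0.31 in the least abundant bin and 0.23 in the most abundant.

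**Figure D3:**
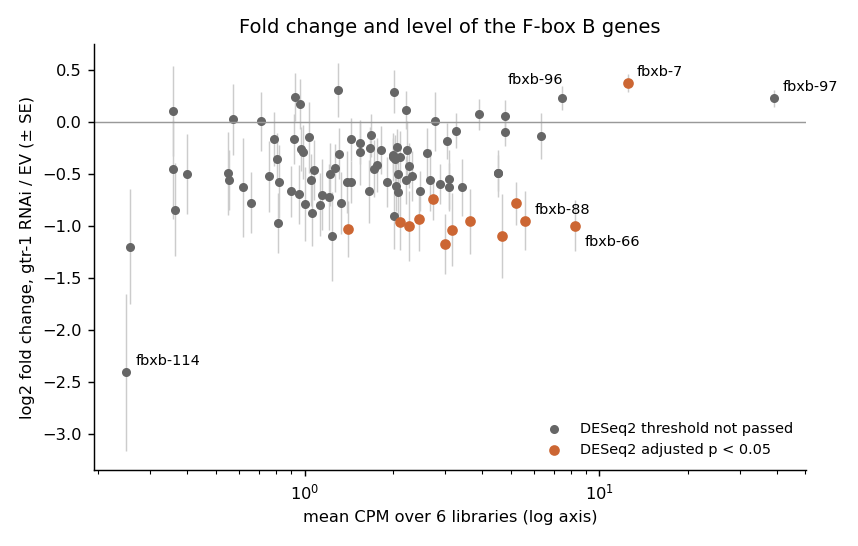
Log2 fold change (RNAi relative to EV, ± SE from edgeR) of the 96 kept members against their mean CPM over 6 libraries on a log axis. Members that passed the DESeq2 threshold are coloured: 12 lie below 0 and 1, fbxb-7, above it.

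The 8 members that the filter left out had few reads. The gene fbxb-14 had no count in any library and fbxb-58 a single one, in EV replicate 1. Summed counts with EV and gtr-1 RNAi were 25 and 8 for fbxb-99 (ratio 0.307, exact interval 0.120 to 0.702) and 22 and 8 for fbxb-29 (0.349, 0.134 to 0.814). For fbxb-64, fbxb-39, fbxb-79 and fbxb-55 the interval included 1, and a difference was not detectable at this depth. All of these intervals cover counting error only and not the spread between libraries. In CPM the groups of fbxb-29 overlapped and those of fbxb-99 did not. DESeq2 gave neither of these genes an adjusted p.

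Neighbouring members did not always share a direction. In 11 of the 19 clusters every kept member had a negative fold change, and in 8 both signs occurred. Among the 11, the clusters of fbxb-14 with fbxb-34 and of fbxb-29 with fbxb-30 had only 1 kept member each. Over the family 85.4% of kept members were negative, and whether neighbours shared a sign more often than this was not tested. The clusters with the most members, each of 9 genes on chromosome II, had medians of -0.50 (1536231 to 1571132, 9 negative) and -0.50 (1676388 to 1725693, 8 negative). A cluster of 4 on chromosome V (19233769 to 19241710), with fbxb-115 among its genes, had a median of -0.94. The cluster of fbxb-97 and fbxb-96 (chromosome II, 1846977 to 1863782) also holds fbxb-98, at 1.38 CPM with EV and 0.745 CPM with RNAi on average with separate groups, a log2 fold change of -0.88 ± 0.32 SE. By chromosome the medians were -0.73 on I, -0.49 on II, -0.25 on III, -0.78 on IV and -0.35 on V; on X only 2 members were kept.

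**Figure D4:**
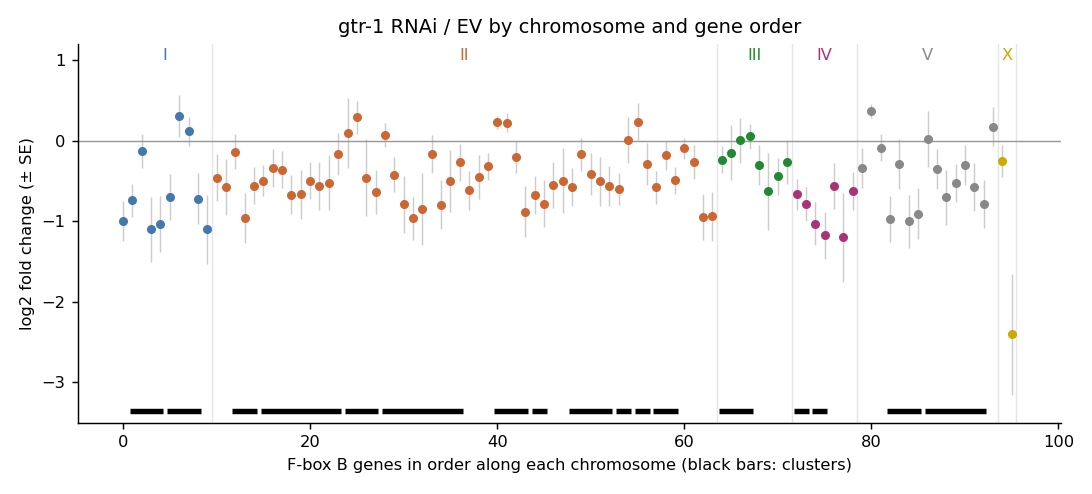
Log2 fold change (± SE) of the 96 kept members in their order along each chromosome, which is named above the points; black bars join kept members that lie in the same cluster. Points on chromosomes I, II, III and V fall on both sides of 0, and those on IV and X are all negative.

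Many members shared the same extreme libraries. The second RNAi library held the lowest value of 69 of the 96 kept members, where it held the lowest value of 27.4% of all genes tested. EV replicate 3 held the highest value of 53 members, where the share over all genes was 22.6%. The third RNAi library was above both others of its group in 68 members, where 40.5% of all genes tested were so ordered. The spread between libraries was also wider with RNAi than with EV in 81 of the 96 members (median SD of log2(CPM + 0.5) 0.27 against 0.13). The matching share over all genes was not computed, so the wider spread cannot be read as particular to the family. This order of libraries resembles that on the first principal component of all genes, given above, and its part in the result was not tested.

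Among the related families, F-box C genes had a median log2 fold change of -0.26 (34 kept of 48, 27 negative, where 50.5% of all genes were). Among the 30 F-box C genes with an adjusted p, DESeq2 called 4 lower, which is 13.3% as in the F-box B family, and 0 higher, where it called 6.96% and 6.03% of all genes. F-box A genes had a median of 0.0062 (119 kept of 170, 55 negative), which was -0.053 with library size in place of TMM, and DESeq2 called 1 lower and 8 higher among the 100 with an adjusted p. The difference between the families was not tested. Summed levels of the A family were 750 ± 33.6 CPM with EV and 828 ± 18.9 CPM with RNAi (SD, n = 3 each), and those of the C family 332 ± 20.4 and 286 ± 21.3 CPM.

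**Figure D5:**
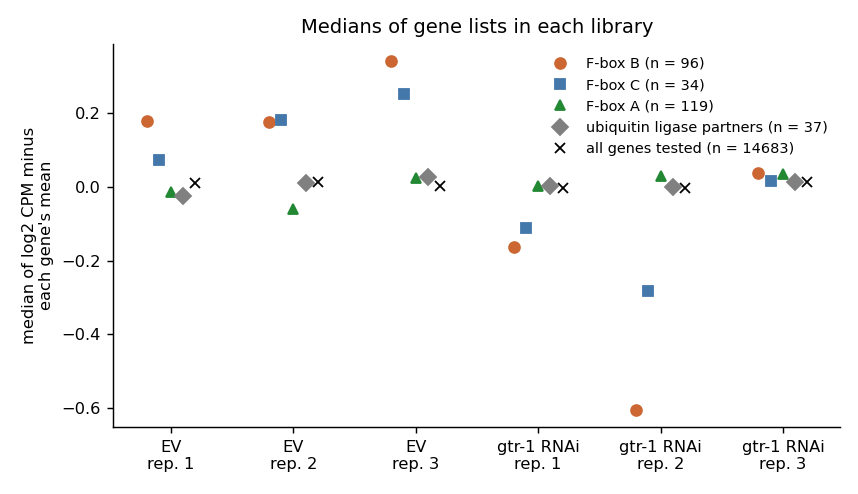
Median of log2 CPM minus each gene's mean over 6 libraries, for the F-box A, B and C families, the ubiquitin ligase partner genes and all genes tested, in each library. F-box B and C medians are above 0 in the EV libraries and lowest, at -0.61 and -0.28, in RNAi replicate 2, and the partner genes run from -0.024 to 0.026.

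The genes that F-box proteins work with were taken as a list. It held Skp1-related genes, cul-1, the RING subunit genes rbx-1 and rbx-2, ubiquitin and NEDD8 enzymes and the COP9 signalosome; 38 of its 39 names had counts and 37 were kept. Their median log2 fold change was 0.0041. The edgeR test called 0; at an unadjusted p under 0.05 it had 2 lower and 1 higher, where 15.3% and 12.9% of all genes were. DESeq2 called 1 lower and 0 higher of 37, where it called 6.96% and 6.03% of all genes. The ubiquitin-activating enzyme gene uba-1 was at 826 ± 12.4 CPM with EV and 885 ± 50.3 CPM with RNAi (log2 fold change 0.10 ± 0.05 SE, edgeR adjusted p = 0.200). The conjugating enzyme gene let-70 was at 658 ± 31.5 and 660.1 ± 16.9 CPM (edgeR adjusted p = 0.956). The gene cand-1, whose product exchanges substrate receptors on cullins, was at 365 ± 5.33 and 349 ± 6.79 CPM (log2 fold change -0.07 ± 0.03 SE, edgeR adjusted p = 0.224). The Skp1-related gene skr-19 was the 1 called lower by DESeq2, at 27.9 ± 2.60 against 20.7 ± 3.34 CPM (DESeq2 log2 fold change -0.41 ± 0.13 SE, adjusted p = 0.0189). The edgeR adjusted p of skr-19 was 0.116.

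Summed levels of hypodermis, germline and sperm markers were also separate between the groups. Taken singly, 19.6% of all genes tested were separate and lower with RNAi, and 16.6% separate and higher. The summed level of 10 hypodermis markers ran from 519 to 621 CPM with EV and from 361 to 495 CPM with RNAi. That of 10 oocyte and germline markers ran from 9602 to 9897 and from 10005 to 10811 CPM, and that of 9 sperm markers from 5.62 to 6.48 and from 6.57 to 7.44 CPM. The 5 sperm markers kept by the filter had a median log2 fold change of -0.17, opposite in sign to the difference of the sperm sums. DESeq2 called 4 of 10 intestine and 3 of 10 germline markers higher, where it called 6.03% of all genes higher. It called 1 of 10 neuron and 1 of 10 muscle markers lower, where it called 6.96% of all genes lower. Of the hypodermis, sperm and early embryo markers DESeq2 called 0 in either direction. The edgeR test called 0 markers, as it called 0% of all genes. Ranges overlapped for early embryo, intestine, neuron and body wall muscle markers, each with 10 genes in the table, and no marker was at 0 in all libraries. The part of these shifts in the F-box B difference was not tested.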

How the data were processed

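The deposited counts, whole numbers per gene, came from stranded mRNA libraries per the labels' protocols. Per the submitters' processing notes, STAR, HTSeq and WBcel235 were used. Tool versions, gene annotation and strandedness of counting: not given in the sources used here. The normalized signal columns, deposited by the authors, are the counts over a single scaling factor for each library and were not used in tests. Columns headed GT and ending in a number were matched to the gtr-1 RNAi titles with that number. Nothing in the labels says whether replicates were grown separately. Their spread, on which the p-values rest, may therefore be technical.

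Members were rows named fbxb and a number. They and all lists were chosen with earlier results of these data known. The named genes were the 12 most abundant, the 8 highest and 8 lowest fold changes and all calls, with the 3 most abundant and the called partner genes. Planned checks of shared sequence and protein identity between members were not run.

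All genes were fitted together: filterByExpr (14683 genes kept), TMM and the robust edgeR 4.0.16 quasi-likelihood test in R 4.3.3, Benjamini-Hochberg adjusted, threshold 0.05. CPM are TMM-adjusted. DESeq2 1.42.0 (on all 22407 genes with counts), limma 3.58.1 (voom), other scalings and filters and left-out libraries were alternatives. Positions come from the Ensembl WBcel235 annotation, in which every member was found. After the fits to these data, edgeR and DESeq2 were also run on counts simulated from their levels and spread, with known changes in some genes. At 1.5-fold, edgeR recovered 41.8% and DESeq2 62.7% of the changes, at 2-fold 58.2% and 67.2%, and at 4-fold 87.9% and 90.9%. Among 14683 genes, edgeR made 12 false calls and DESeq2 41. The simulated libraries were independent, with the same spread in both groups. The changed genes were drawn from all genes kept and not from the F-box B genes. The place of RNAi replicate 3 near the EV libraries was not simulated. These rates therefore do not say how many changes either test could find in the family.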

Additional observations from a re-analysis of the deposited data

How the results depend on the processing

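The family's median log2 fold change and summed level stayed negative under every alternative tried. The median ran from -0.65 to -0.31 and the log2 ratio of the sums from -0.41 to -0.22 when 1 library was left out. Against 0 members called by edgeR, DESeq2 called 12 lower and 1 higher, limma-voom with quality weights 39 and 3, and edgeR with the replicate number as a block 9 lower and 0 higher. DESeq2 with the block, added after the data were seen, called 8 lower and 0 higher. Deviations of same-numbered libraries from their group means correlated at 0.24, -0.11 and 0.20, and those of libraries with unequal numbers at -0.326 to 0.205. With 3 libraries per group, these values cannot decide whether the numbers pair the libraries. Leaving out 1 library, edgeR called 0 to 33 members lower and 0 to 2 higher, and DESeq2, added after the data were seen, 0 to 26 lower and 0 to 2 higher. Of the 37 partner genes kept, edgeR called 3 lower and 1 higher without RNAi replicate 3, where it called 15% and 8.77% of all genes. It called 0 of them when any other library was left out. With the block it called 1 lower and 0 higher (3.35% and 3.18% of all genes). DESeq2 called 1 lower and 0 higher (6.96% and 6.03%), and limma-voom 4 lower and 2 higher (21.6% and 16.1%). The F-box A median was -0.053 with library size alone, and ran from 0.023 to 0.078 with 1 library left out. Of the 28 named members, 4 changed sign under an alternative. By limma-voom, fbxb-41 was at 0.031 and fbxb-103 at 0.019; with library size alone, fbxb-84 was at -0.0019. With 1 library left out, fbxb-41 ran from -0.294 to 0.044, fbxb-84 from -0.021 to 0.165 and fbxb-59 from -0.023 to 0.273. The cause of these differences was not tested. Alternatives that needed transcript or protein sequence were not run. Low counts limit single members: 14 had under 100 counts over 6 libraries.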

Other observations

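Outside the naming rule, and chosen after its values were seen, the Skp1-related gene skr-21 had the lowest fold change of the partner genes. It averaged 20.8 ± 2.93 CPM in the EV group and 9.90 ± 5.23 CPM in the RNAi group (SD, n = 3 each), with no overlap between the groups. Its log2 fold change was -1.07 ± 0.38 SE, and it passed neither test (edgeR adjusted p = 0.146, DESeq2 adjusted p = 0.0740).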
